A study of Mus musculus with 12 samples.

Results

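The genes of the cytosolic ribosome were followed in mesenchymal stem cells of mouse bone marrow, adherent stromal cells that can form bone, fat and cartilage, after drugs that act on actin. Members were taken from the gene symbols of the count table: Rps and Rpl symbols followed by a number, with an optional letter suffix, together with Rpsa, Rplp0, Rplp1 and Rplp2, leaving out rows marked as pseudogenes and the Rps6 kinases. The rule found 84 genes of 23358 rows, and 82 of them passed a filter on low counts, against 13534 rows in all. RNA was sequenced from cells given cytochalasin D (CytoD), which caps growing actin filaments, CK666, an inhibitor of the branching complex Arp2/3, both drugs together (CytoD+CK666), or neither (Ctrl). Treatment lasted 24 h in medium with 10% serum, the sources used here do not give drug concentrations, and each group had 3 libraries. Strain, age and sex are not given either, and nothing says whether replicates were separate animals or cultures, so that p-values measure only how these libraries vary, and that variation may be technical.

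Each cytosolic ribosome joins a small subunit, which reads the mRNA, with a large subunit, which forms peptide bonds, and its proteins are made in step with each other. Their mRNAs are short, abundant in dividing cells and begin with a 5′ terminal oligopyrimidine (TOP) tract, a run of pyrimidines through which the kinase complex mTORC1 and its partner Larp1 control translation. Most of these genes also have many processed pseudogenes in mammalian genomes.

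Sequence around the start of 10 members is shown because these members carry the comparisons that follow: Rps2, Rpsa, Rplp0, Rpl12, Rps6, Rpl28 and Rpl35 were lower with CytoD, while Rpl9, Rpl22 and Rpl39l were not called. The RefSeq promoter table (GRCm38.p6) matched 63 of the 84 members. Each window runs 5′ to 3′ on the gene's strand from 18 bases before the annotated start and is 30 bases long, with its longest run of pyrimidines in capitals.
Rps2 (chr17:24720045-24720074, + strand): cgtaggcagtcgagatctcgcgCTTCTTgg
Rpsa (chr9:120127748-120127777, + strand): gctgtgggttatttaaggacgtcaTTTCCg
Rplp0 (chr5:115559449-115559478, + strand): gtcgTCTTCgggtttcgaggaccgcctggt
Rpl12 (chr2:32961694-32961723, + strand): gtgggcggagcaggatccgTCTTTTCggct
Rps6 (chr4:86857356-86857385, - strand): gttaagcggaagtcgggCCTCTTTTTCgtg
Rpl28 (chr7:4792947-4792976, + strand): gtcccgcctctcgtgTCTCTCTTTCCgtct
Rpl35 (chr2:39005120-39005149, - strand): agtcggccccgCCCTTTCCTCTTTCTCTCg
Rpl9 (chr5:65391420-65391449, - strand): gacacgcagggCCCTgacggattacaagaa
Rpl22 (chr4:152325708-152325737, + strand): gaCTTCgccctgggaaaagcaatagctggc
Rpl39l (chr16:10170210-10170239, + strand): tagctcccaggCCTTTCCggatttccggtg
The run was longest in Rpl35, at 18 bases, then 11 in Rpl28 and 10 in Rps6. It was 7 bases in Rpl12 and Rpl39l, 6 in Rps2, 5 in Rpsa and Rplp0, and 4 in Rpl9 and in Rpl22. A cytosine followed by at least 7 pyrimidines, on the gene's own strand and within 25 bases of the annotated start, was present in 30 of 63 members with a promoter (47.6%) and in 15.3% of all 27025 promoters in the table. Of the members with such a run that passed the filter, 16 of 30 were called lower with CytoD, against 18.9% of all genes tested, and their median log2 change was -0.32. Of those without it, 14 of 31 were called lower, with a median of -0.28. The score depends on the annotated start, and whether transcripts in these cells begin there was not tested. Members without the run are therefore not shown to lack a TOP tract. A search of both strands of the whole window of 300 bases (250 before the start and 50 after it) found GGAAGT in 47.6% of the members and 24.1% of all promoters. GGGCGG was found in 60.3% of members and 35.9% of promoters, AAGATGGC in 7.94% and 2.88%, CACGTG in 7.94% and 7.24% and TATAAA in 9.52% and 14.2%. None of these motifs contains another, and each match is a description of letters in the window.

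Libraries held 48930210 to 69269716 gene counts. Every count was even, and fits on halved counts are among the alternatives. Below, CPM are counts scaled to 1e6 per library with TMM factors, log2 fold changes come from edgeR's quasi-likelihood test on all 12 libraries with their standard error (SE), and a gene is called at an adjusted p (Benjamini-Hochberg over all genes tested) under 0.05. The 11 markers of marrow stromal cells summed to 22990 to 25505 CPM in CytoD libraries, 8921 to 10467 in CK666 libraries, 8804 to 9084 in CytoD+CK666 libraries and 14339 to 17651 in Ctrl libraries. Ptprc and Emr1 of macrophages were at 0 throughout, macrophage markers summed to at most 9.58 CPM over 6 genes, endothelial ones to at most 0.803 over 4, and erythroid and lymphoid ones to at most 0.0407 over 6. The RNA is bulk, so fewer cells of a kind and less RNA per cell cannot be told apart.

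CK666 replicate 3 stood apart from all other libraries in a way that follows gene length. Across all genes tested its difference from the mean of all 12 libraries, itself included, had a correlation of -0.43 with log2 length. In the other libraries this was -0.07 to 0.15 (Pearson r over genes, and genes are not replicates). Other genes shorter than 1000 bases had a median log2 difference of 0.52 from the Ctrl mean in that library, and genes of 4000 bases or more had -0.35. The ribosomal protein genes are short, with a median of 706.5 bases against 2828.5 for all genes tested, and 64 of the 82 were under 1000 bases. Their median in CK666 replicate 3 was 0.63 above the Ctrl mean, against 0.16 and 0.03 in CK666 replicates 1 and 2. Each result is therefore given with and without that library.

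In Ctrl cells the members were among the most abundant mRNAs per base of gene length. Their median level in the authors' RPKM was 526, with quartiles of 292 and 726, against a median of 6.38 RPKM over all genes that passed the filter, and 71 of 84 members were above 100 RPKM. Rpl41, the smallest ribosomal protein, was highest at 1318 ± 88.3 RPKM (SD, n = 3), then Rplp0, the core of the large subunit's stalk, at 1251 ± 64.3, and Rps12 of the small subunit at 1216 ± 77.6. These neighbours in the order did not differ beyond their spread.

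A small set of members was listed far below the family. In Ctrl cells Rps27 was lowest of those tested, at 2.30 ± 0.433 RPKM, followed by Rps4y2 at 2.98 ± 0.399 and Rpl26 at 3.93 ± 0.839 (SD, n = 3). Rpl34, at 6.41 ± 0.179 RPKM, Rpl22l1, Rpl30, Rps23 and Rps15a, at 15.3 ± 0.433 RPKM, came next. Apart from Rps4y2 and Rpl22l1 these are core proteins of the standard ribosome. Rps15a has a listed length of 5134 bases, which lowers its RPKM. Rpl34 overlaps the row Rpl34-ps1, which had 4238 to 8964 counts per library, against 204 to 532 for Rpl34 itself. Rpl10l and Rpl3l, copies expressed mainly in testis and in muscle, had at most 2 and 4 counts in any library and were not tested.

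Many members share sequence with other genes. Of all stretches of 50 bases in a member's GENCODE M21 transcripts, a median of 34% also occurred in transcripts of other genes, pseudogenes included. Rps27 shared 46.2% of its stretches and Rpl26 44.0%, whereas Rpl36a shared 85.5% and Rps6 84.6% at much higher levels. The sources used here do not say how reads that match several places were treated, and members with much shared sequence are uncertain for that reason.

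**Figure D1:**
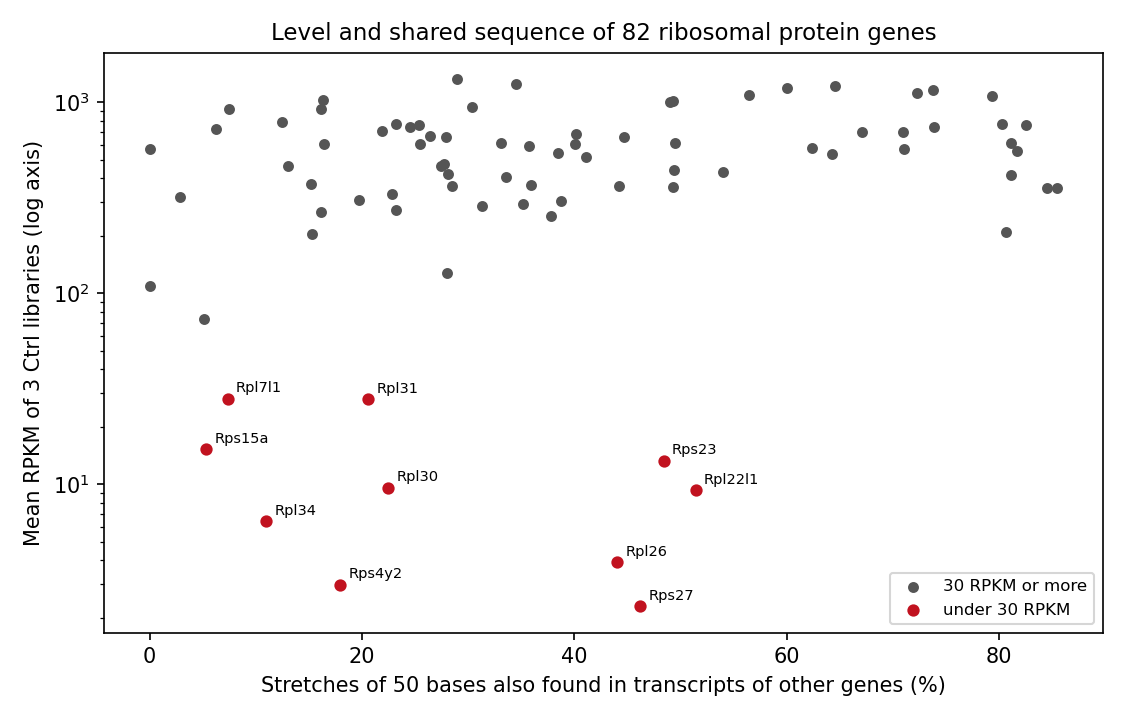
Mean RPKM in 3 Ctrl libraries (log axis) against the share of stretches of 50 bases also found in transcripts of other genes, for the 82 members that passed the filter, 1 point per gene. Members under 30 RPKM are named, and they lie between 5.35% and 51.4% shared while members at higher levels span 0% to 85.5%.

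Taken as a share of all gene counts, the members were lowest in CytoD libraries. Their 84 genes took 3.35%, 3.16% and 3.18% of counts in CytoD libraries, 4.61%, 4.20% and 6.11% in CK666 libraries, 3.89%, 4.05% and 3.78% in CytoD+CK666 libraries, and 3.91%, 3.61% and 3.96% in Ctrl libraries. All CytoD libraries lay below all others, and all CK666 libraries lay above all others, with replicate 3 the highest. These shares do not use the TMM factors, so they need not match the fitted changes. The factors were 0.941 to 0.953 in Ctrl libraries, 0.994 to 1.03 with CytoD, 1.02 to 1.03 with CK666 and 1.01 to 1.03 with both drugs. The group means were 3.23% ± 0.11 with CytoD, 4.97% ± 1.01 with CK666, 3.91% ± 0.14 with both drugs and 3.83% ± 0.19 in Ctrl (SD, n = 3 each), and 4.40% with CK666 when replicate 3 was left out.

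**Figure D2:**
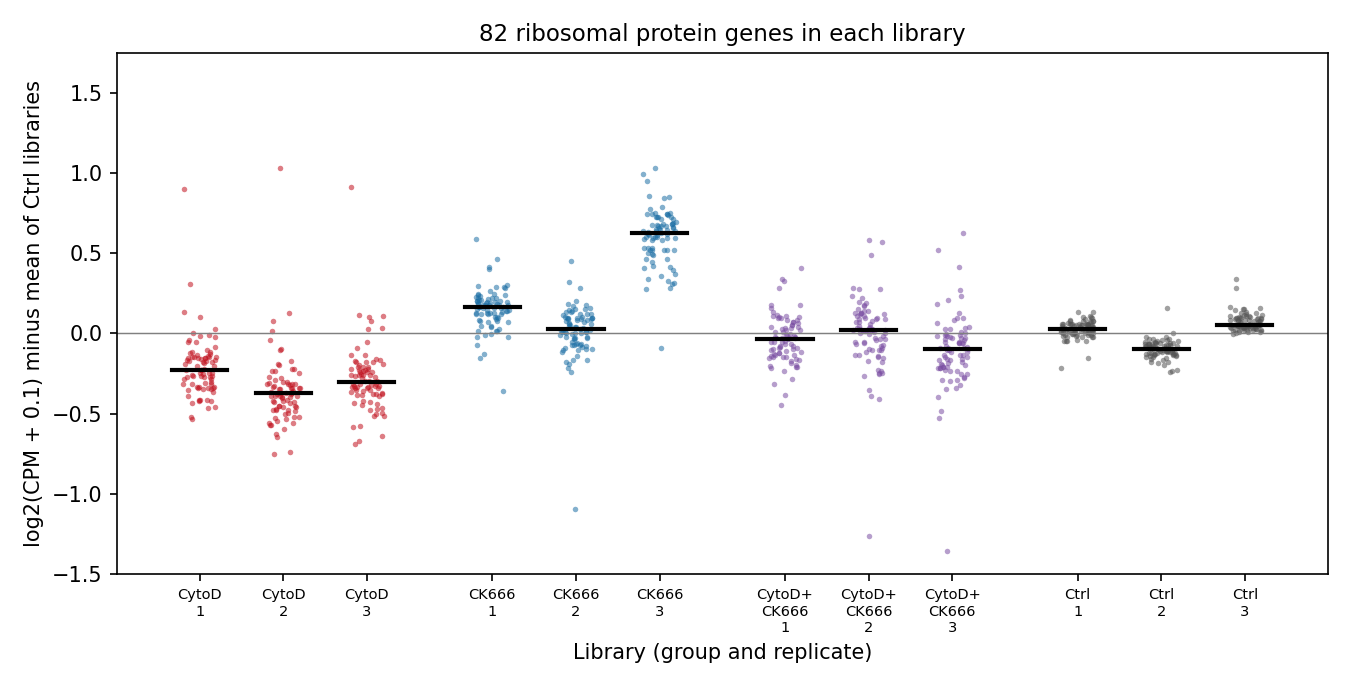
Difference of each of 82 members from its mean over the Ctrl libraries, as log2(CPM + 0.1), in each of 12 libraries, with 1 point per gene and a black bar at the median of the library. The medians of the 3 CytoD libraries lie at -0.23, -0.37 and -0.30, and CK666 replicate 3 lies at 0.63, above every other library.

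With CytoD most ribosomal protein genes were lower than in Ctrl, by a modest amount. Of 82 members, 39 were called lower (47.6%) and 1 higher, against 18.9% of all genes tested called lower and 19.1% called higher. The median log2 change was -0.30 (1.23-fold lower), with 78 of 82 members on the lower side, against a median of 0.02 over all genes tested. In 63 members every CytoD library lay below every Ctrl library, which was the case for 30.3% of all genes. In the small subunit 18 of 33 were called lower, with a median of -0.32, and in the large subunit 21 of 49, with a median of -0.28. Without CK666 replicate 3, whose spread enters the shared error estimate, 66 members were called lower and 1 higher (26.1% and 24.3% of all genes), and the median was -0.31. With a correction for gene length and all libraries, 63 were lower and 1 higher (23.1% and 22.0%), with a median of -0.29. The count also depended on single libraries of the compared groups. It was 18 of 82 without Ctrl replicate 1, beside 2283 of 13751 genes tested called lower in the same fit. Without Ctrl replicate 3 it was 15, beside 2027 of 13742 genes. Without CytoD replicates 1, 2 and 3 it was 25, 14 and 15, beside 2234 of 13736, 1993 of 13697 and 1965 of 13712 genes. Other genes under 1000 bases had library medians of -0.03 to 0.05 relative to the Ctrl mean in the CytoD libraries, against -0.23 to -0.37 for the members. The 6 markers of dividing cells summed to 154 to 179 CPM in CytoD libraries, 236 to 291 in CK666 libraries, 85.8 to 95.9 in CytoD+CK666 libraries and 353 to 473 in Ctrl libraries. The 5 adipocyte markers summed to 405 to 425 CPM with CytoD, 1179 to 2073 with CK666, 1948 to 2795 with both drugs and 79.9 to 90.3 in Ctrl. The part of these lists, or of the stromal markers, in the members' changes was not tested.

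**Figure D3:**
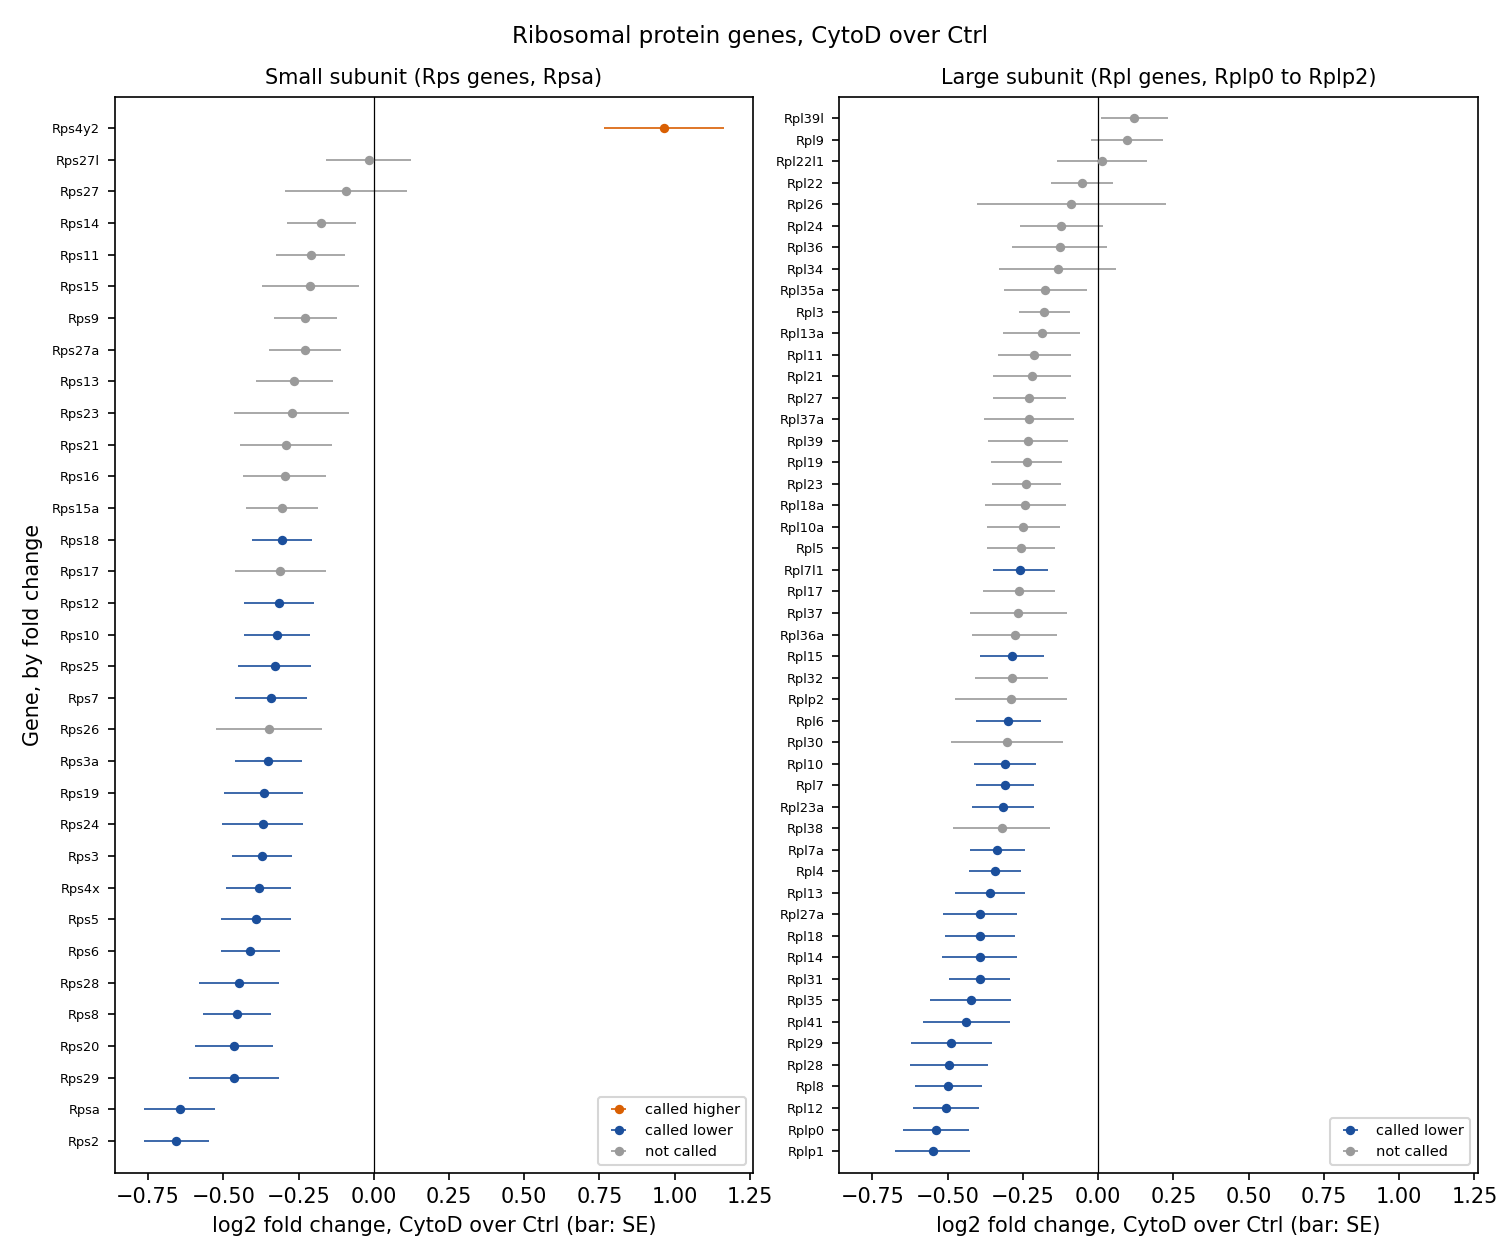
Log2 fold change of CytoD over Ctrl for each of 82 members (points) with its SE (bars), small subunit at left and large subunit at right, sorted by size and coloured by call at an adjusted p under 0.05. Rps2 and Rpsa lie lowest, at -0.66 and -0.64, and Rps4y2, at 0.96, is the member called higher.

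The 5 largest falls were in Rps2 and Rpsa of the small subunit and in Rplp1, Rplp0 and Rpl12 of the large subunit's stalk. Rps2, which lines the mRNA entry channel, had 898, 772 and 806 CPM in CytoD libraries and 1330, 1241 and 1329 CPM in Ctrl libraries. Its CytoD libraries all lay below its Ctrl libraries, a log2 change of -0.66 (SE 0.11, adjusted p = 0.00045). Rpsa, also known as the laminin receptor precursor, had 944, 811 and 851 CPM in CytoD libraries and 1390, 1255 and 1429 CPM in Ctrl libraries. It fell by 0.64 on the log2 scale (SE 0.12, adjusted p = 0.000922), again with no overlap of the groups.

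The stalk is the arm of the large subunit that recruits translation factors, and it holds Rplp0, Rplp1 and Rplp2 with Rpl12 at its base. Rplp1 had 478, 451 and 424 CPM with CytoD and 683, 601 and 698 CPM in Ctrl (log2 -0.55, SE 0.12, adjusted p = 0.00355). Rplp0 had 1520, 1309 and 1352 CPM with CytoD and 2097, 1897 and 2081 CPM in Ctrl (log2 -0.54, SE 0.11, adjusted p = 0.00193). Rpl12 had 553, 515 and 538 CPM with CytoD and 752, 714 and 814 CPM in Ctrl (log2 -0.51, SE 0.11, adjusted p = 0.00286). For all 3 the CytoD libraries lay below every Ctrl library. Rplp2, their partner at a lower level, had 64.3, 42.7 and 57.2 CPM with CytoD and 70.5, 61.0 and 69.3 CPM in Ctrl, groups that overlap, and its log2 change of -0.29 was not called (SE 0.19, adjusted p = 0.24). Rps2, Rpsa, Rplp0, Rplp1 and Rpl12 kept their calls under each of 23 alternatives, including every fit with 1 library left out.

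Among members with known roles in signalling, Rps6, the substrate of the S6 kinases, had 468, 429 and 433 CPM with CytoD and 599, 564 and 605 CPM in Ctrl, a log2 change of -0.41 (SE 0.10, adjusted p = 0.0055). Rps3, which also acts in DNA repair, had 564, 546 and 549 CPM with CytoD and 718, 688 and 742 CPM in Ctrl (log2 -0.37, SE 0.10, adjusted p = 0.0104). Both kept their calls under all 23 alternatives. Rpl5 and Rpl11, which bind the p53 ligase Mdm2 when ribosome assembly fails, had log2 changes of -0.26 (adjusted p = 0.092) and -0.21 (adjusted p = 0.187) and were not called. Both were called lower without CK666 replicate 3 (adjusted p = 0.00235 and 0.00488), as were Rpl3, near the peptidyl transferase centre (0.0039), Rpl10a (0.00285), Rpl38 (0.00709) and Rpl39 at the exit tunnel (0.00625). Rpl10, which completes the large subunit, was called at log2 -0.31 (adjusted p = 0.0308), a call lost without Ctrl replicate 1 (0.093), Ctrl replicate 3 (0.0846), CytoD replicate 2 (0.0918) or CytoD replicate 3 (0.0907). Rps4x was called at -0.38 (adjusted p = 0.0127) and missed the threshold without Ctrl replicate 1 (0.0505). Rpl7 was called at -0.31 (adjusted p = 0.0237) and lost its call without Ctrl replicate 1 or 3 or any CytoD library (0.0511 to 0.0855). Rps19, mutated in Diamond-Blackfan anaemia, was called at -0.37 (adjusted p = 0.0427) and lost its call without any single Ctrl, CytoD or CytoD+CK666 library (0.0503 to 0.146). Rpl7l1, a paralog of Rpl7, was called at -0.26 (adjusted p = 0.0383) and lost its call without any single Ctrl or CytoD library, without CytoD+CK666 replicate 2 or 3, and with no filter on low counts (0.0521 to 0.128).

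A few members did not follow the family in CytoD cells. Rpl9, chosen after its values were seen, had 656, 644 and 660 CPM with CytoD and 643, 566 and 624 CPM in Ctrl, so that all CytoD values lay above Ctrl (log2 0.10, SE 0.12, adjusted p = 0.56). Rpl39l, a paralog of Rpl39, had 115, 114 and 112 CPM with CytoD and 105, 101 and 107 CPM in Ctrl, again with every CytoD value above Ctrl (log2 0.12, SE 0.11, adjusted p = 0.422). Rps27l, a paralog of Rps27 and a target of p53, had 149, 136 and 150 CPM with CytoD and 151, 133 and 157 CPM in Ctrl (log2 -0.02, SE 0.14, adjusted p = 0.936). Rpl22, at -0.05 (adjusted p = 0.711), and its paralog Rpl22l1, at 0.01 (adjusted p = 0.958), were not called, nor was Rps27 at -0.09 (adjusted p = 0.753). Rpl39l was called higher with only the groups compared in the fit (adjusted p = 0.0408) and without CK666 replicate 3 with the length correction (0.0441). A missed threshold does not show that levels were equal.

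Rps4y2 was the single member called higher with CytoD. Its current symbol is Rps4l, which RefSeq lists as a transcribed pseudogene, on chromosome 6 from 148354656 to 148355596 in the table's coordinates. It had 6.29, 6.91 and 6.35 CPM in CytoD libraries, 3.51, 4.18 and 6.07 CPM in CK666 libraries, 3.59, 4.99 and 5.19 CPM in CytoD+CK666 libraries, and 2.85, 3.72 and 3.46 CPM in Ctrl libraries. All CytoD values lay above all others, and the log2 change over Ctrl was 0.96 (SE 0.20, adjusted p = 0.00216). The row lies inside the span of Tmtc1, which is on the other strand and rose with CytoD by 1.93 on the log2 scale (SE 0.18, adjusted p = 6.55e-06). The sources used here do not say whether counting used strand, so reads of the 2 genes cannot be told apart.

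**Figure D4:**
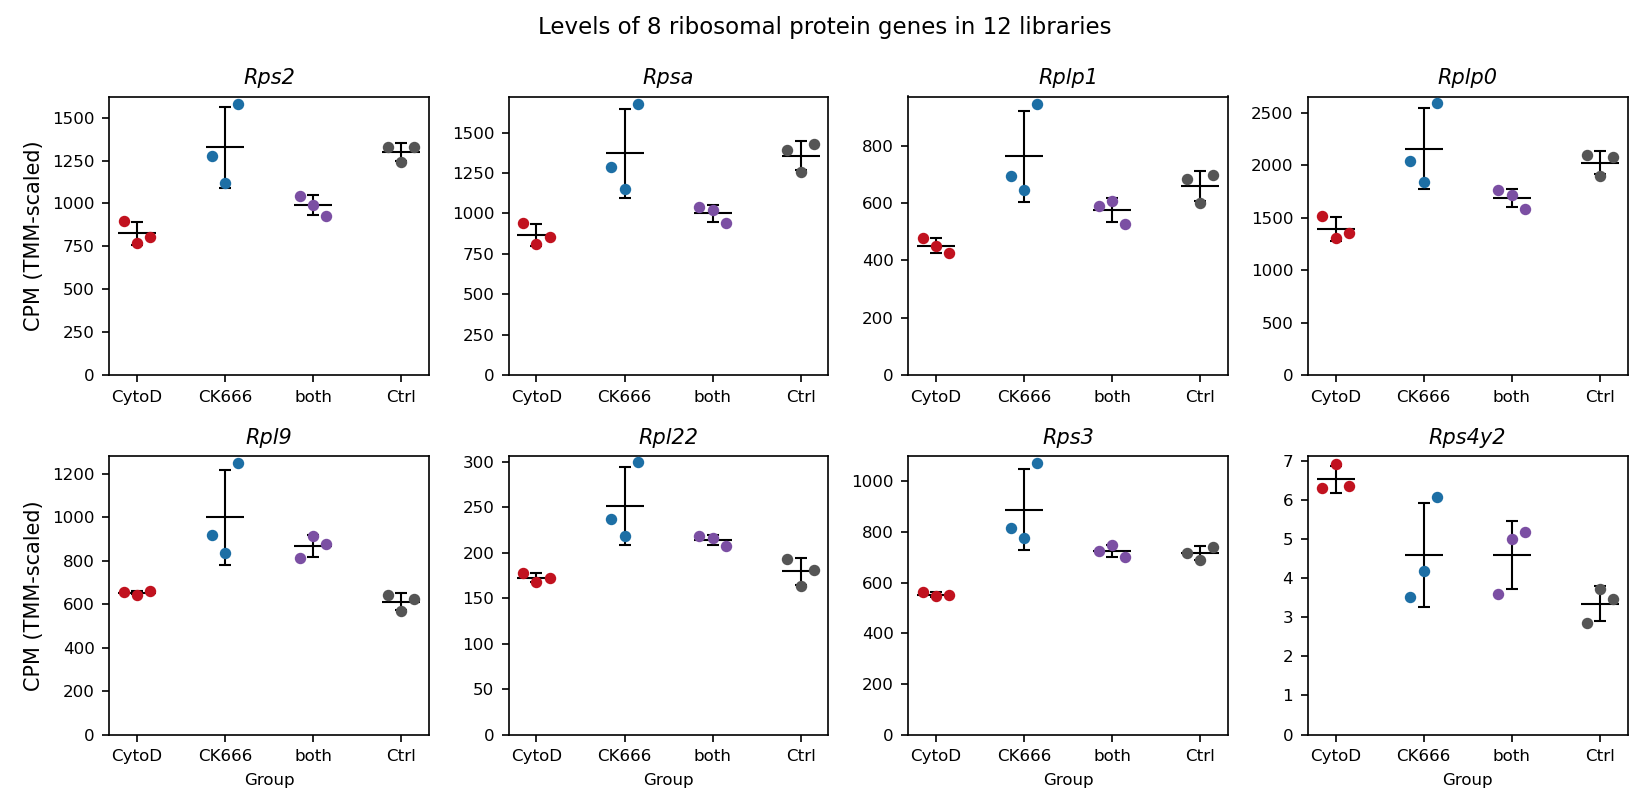
CPM of 8 members in each of 12 libraries (points) with the group mean and SD (bars, n = 3), for CytoD, CK666, both drugs and Ctrl from left to right. Rps2, Rpsa, Rplp1 and Rplp0 are lowest with CytoD, Rpl9 is higher with CK666 and with both drugs than in Ctrl, and Rps4y2 is highest with CytoD.

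Genes that work with the ribosome were read beside the members, and their counts stand against 18.9% of all genes tested called lower and 19.1% called higher with CytoD, or 26.1% and 24.3% without CK666 replicate 3. Among ribosomal proteins that the symbol rule misses, Gnb2l1 (the current Rack1), a scaffold on the small subunit, had 705 ± 50.4 CPM with CytoD and 976 ± 43.3 CPM in Ctrl (log2 -0.47, adjusted p = 0.00217), and Rpl36al had a log2 change of -0.49 (adjusted p = 0.00539). Both were called lower. Fau, at -0.23 (adjusted p = 0.193), was not called. Of 18 other mRNAs listed as having a 5′ TOP tract, 10 were called lower and 1 higher, with a median of -0.29 (13 and 2 without CK666 replicate 3). The elongation factor subunits Eef1g, at 461 ± 16.9 CPM with CytoD and 694 ± 20.5 CPM in Ctrl, and Eef1b2, at -0.52 (adjusted p = 0.00153), were among those lower. Of 24 initiation factors 13 were called lower and 1 higher, with a median of -0.28 (21 and 1 without CK666 replicate 3).

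Of 39 ribosome assembly and rRNA processing genes tested, 26 were called lower and 2 higher with CytoD, with a median of -0.31 (31 and 2 without CK666 replicate 3). For this and the next 2 lists, 18.9% of all genes were called lower and 19.1% higher, or 26.1% and 24.3% without that library. Fbl, the methyltransferase of box C/D particles, had 31.7 ± 1.84 CPM with CytoD and 52.7 ± 3.79 CPM in Ctrl (log2 -0.73, adjusted p = 0.000236), and its partner Nop56 had a log2 change of -0.69 (adjusted p = 0.000563). Of 24 genes of RNA polymerases I and III, 7 were called lower, with a median of -0.06. Mitochondrial ribosomal proteins, which are also short and widely expressed, had 6 of 76 called lower and 2 higher, with a median of -0.09, and 22 and 5 without CK666 replicate 3. These lists were chosen with earlier results of these data known, and the difference between the lists was not tested.

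Of 23 regulators of ribosome synthesis tested, 4 were called higher and 4 lower with CytoD (5 and 6 without CK666 replicate 3), shares near the 19.1% and 18.9% of all genes. Sesn2, an inhibitor of mTORC1, had 64.7 ± 2.28 CPM with CytoD and 40.3 ± 1.03 CPM in Ctrl (log2 0.68, adjusted p = 2.64e-05), and Mdm2, the ligase of p53, rose by 0.41 (adjusted p = 0.00147). Larp1, which binds TOP mRNAs, had 149.9 ± 3.32 CPM with CytoD and 180.0 ± 0.587 CPM in Ctrl (log2 -0.26, adjusted p = 0.0122), and Rps6kb2, an S6 kinase, had a log2 change of -0.41 (adjusted p = 0.00418). Myc, at -0.16 (adjusted p = 0.394), and Mtor, at -0.05 (adjusted p = 0.674), were not called.

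With CK666 alone, the number of members called higher depended on single libraries, and their median on CK666 replicate 3. With all libraries, 29 of 82 members were called higher (35.4%) and none lower, against 22.5% and 18.7% of all genes tested, and the median log2 change was 0.30. In that edgeR fit 50 members had an unadjusted p under 0.05, beside 6758 of 13534 genes. DESeq2 called 28 higher and 0 lower, beside 2842 and 3081 of 13529. Without CK666 replicate 3, 3 members were called higher and none lower (19.4% and 23.0% of all genes), and the median was 0.05. In that fit 10 members had an unadjusted p under 0.05, beside 6825 of 13730 genes. The count of higher calls also moved with other libraries. Without Ctrl replicates 1, 2 and 3 it was 3, 3 and 6 of 82. Of all genes tested, 2187 of 13751, 2330 of 13755 and 2114 of 13742 were called higher in these fits, a larger share than of the members. It was 61 without CK666 replicate 2, beside 3141 of 13757 genes. A correction for gene length with all libraries kept left 4 called higher and 6 lower, with a median of 0.01 (21.5% and 23.2% of all genes). In CK666 replicates 1 and 2 other genes under 1000 bases had medians of 0.18 and 0.13 above the Ctrl mean, against 0.16 and 0.03 for the members.

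**Figure D5:**
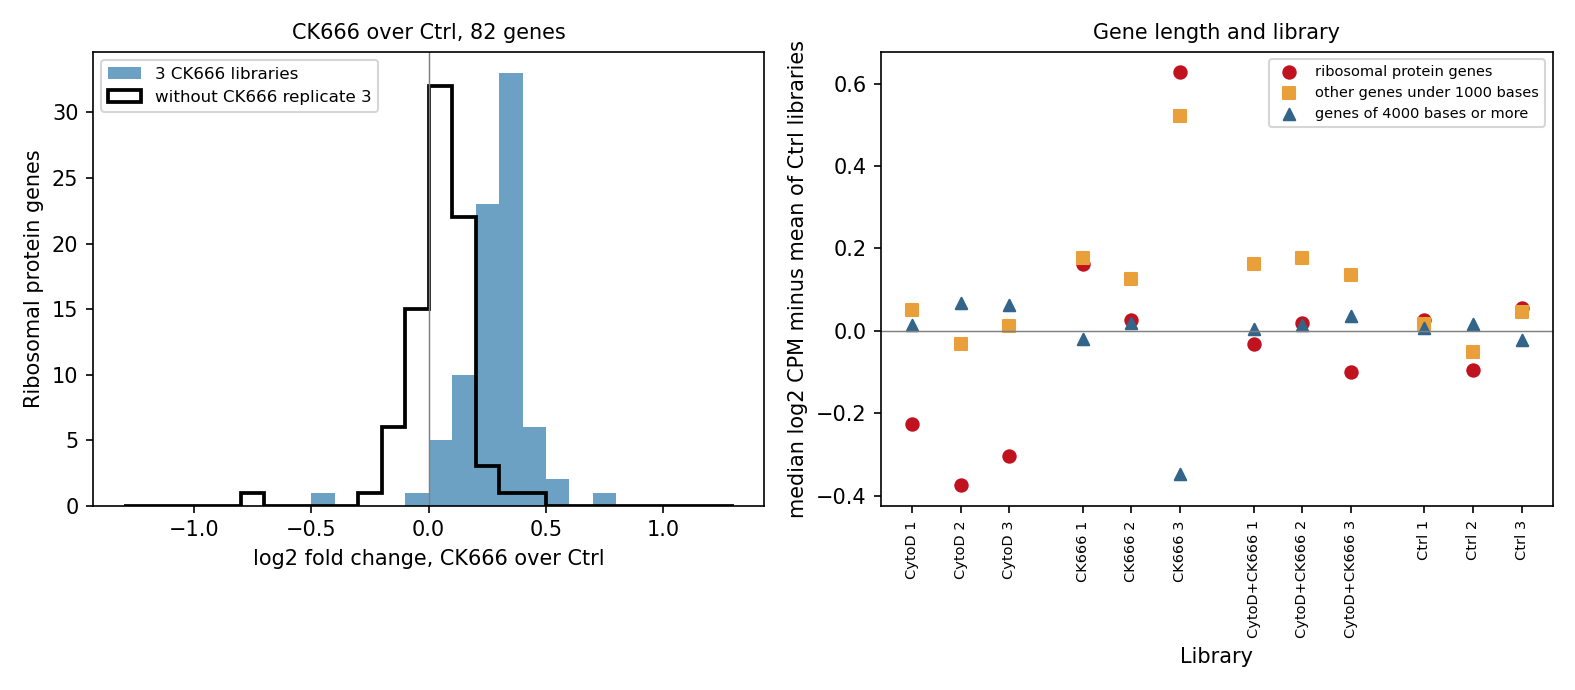
Left, the number of members by log2 fold change of CK666 over Ctrl, with all CK666 libraries (filled) and without replicate 3 (outline), whose medians are 0.30 and 0.05. Right, the median log2 difference from the Ctrl mean in each library for members (circles), other genes under 1000 bases (squares) and genes of 4000 bases or more (triangles), which part most in CK666 replicate 3.

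The 3 members called higher with CK666 when replicate 3 was left out were Rpl9, Rpl22 and Rps27a. Rpl9, a large subunit protein, had 918, 834 and 1247 CPM in CK666 libraries and 643, 566 and 624 CPM in Ctrl libraries. Every CK666 library lay above every Ctrl library, with a log2 change of 0.71 (SE 0.12, adjusted p = 0.000448), and of 0.48 without replicate 3 (adjusted p = 6.44e-05). Rpl22, a large subunit protein that mice can live without, had 237, 218 and 299 CPM with CK666 and 193, 163 and 181 CPM in Ctrl (log2 0.49, SE 0.10, adjusted p = 0.00224), and a log2 change of 0.30 without replicate 3 (adjusted p = 0.00235). Rps27a, made as a fusion with ubiquitin, had 575, 486 and 725 CPM with CK666 and 461, 397 and 437 CPM in Ctrl (log2 0.46, SE 0.12, adjusted p = 0.00726), and 0.26 without replicate 3 (adjusted p = 0.0202). These 3 kept their calls under all 23 alternatives. Rplp2, at 0.57 (adjusted p = 0.0266), and Rpl36, at 0.52 (adjusted p = 0.0183), were also among the most raised, and without CK666 replicate 3 they were at 0.25 (adjusted p = 0.158) and 0.21 (adjusted p = 0.0629). Rplp2 also lost its call without Ctrl replicate 1 (0.0668), 2 (0.0965) or 3 (0.071), and Rpl36 without Ctrl replicate 1 (0.0672) or 2 (0.0759). With the length correction Rplp2 was at 0.20 (adjusted p = 0.164) and Rpl36 at 0.14 (adjusted p = 0.0992). With the replicate block added, or without CK666 replicate 3, the length correction also left both uncalled. So did a fit of only the groups compared (0.0651 and 0.0742).

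Mitochondrial ribosomal proteins were set beside the members in the same comparison. With CK666, 56 of 76 were called higher, against 22.5% of all genes, with a median of 0.38, and 43 of 76 without replicate 3, against 19.4% of all genes, with a median of 0.19. The cytosolic members had 29 and 3 of 82. Other genes under 1000 bases had medians of 0.18 and 0.13 above the Ctrl mean in CK666 replicates 1 and 2. The difference between the lists was not tested.

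With both drugs together the members' median lay slightly under the Ctrl level in the main fit, and further under it with the length correction. Against Ctrl, 2 of 82 were called higher and 4 lower, fewer in each direction than the 24.4% and 21.6% of all genes tested, and the median log2 change was -0.06. Leaving out CK666 replicate 3, 5 were called higher and 20 lower (28.1% and 28.2% of all genes), with a median of -0.09, and with the length correction 3 were higher and 41 lower (25.6% and 26.7%), with a median of -0.16. Without Ctrl replicate 3, and likewise without CytoD+CK666 replicate 2 or 3, 2 were called lower, beside 2681 of 13742, 2448 of 13724 and 2447 of 13721 genes. In the CytoD+CK666 libraries other genes under 1000 bases had medians of 0.14 to 0.18 over the Ctrl mean. The members had library medians of -0.10 to 0.02 there. Rpl9 had the larger of the called rises, at 811, 913 and 876 CPM with both drugs and 643, 566 and 624 CPM in Ctrl (log2 0.50, SE 0.12, adjusted p = 0.00369). Rpl39l had 132, 146 and 139 CPM with both drugs and 105, 101 and 107 CPM in Ctrl, with no overlap (log2 0.41, SE 0.11, adjusted p = 0.0081). Rpsa, at 1041, 1021 and 941 CPM with both drugs and 1390, 1255 and 1429 CPM in Ctrl (log2 -0.44, SE 0.12, adjusted p = 0.00815), and Rps2, at 1046, 991 and 929 CPM with both and 1330, 1241 and 1329 CPM in Ctrl (log2 -0.39, SE 0.11, adjusted p = 0.00922), were called lower. These 4 kept their calls under all 23 alternatives.

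Rpl26 and Rpl4 made up the other calls with both drugs. Rpl26, a large subunit protein listed at a very low level, had 1.81, 0.987 and 0.918 CPM with both drugs and 2.24, 2.20 and 3.19 CPM in Ctrl (log2 -1.05, SE 0.33, adjusted p = 0.0187). Its call was lost without Ctrl replicate 3 (0.0786), CytoD+CK666 replicate 2 (0.0788) or CytoD+CK666 replicate 3 (0.0798). Rpl4, at 907, 861 and 843 CPM with both and 1066, 984 and 1020 CPM in Ctrl, changed by -0.23 (SE 0.09, adjusted p = 0.0414). It lost its call without any single Ctrl or CytoD library and without CytoD+CK666 replicate 2 or 3 (0.0524 to 0.124).

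With both drugs most members lay above their level with CytoD alone, but the share that passed the test with all libraries was near that of all genes. Of 82 members, 16 were called higher (19.5%) and 1 lower, against 15.8% and 14.3% of all genes tested, and the median log2 change was 0.27, with 78 of 82 on the higher side. In 68 members every CytoD+CK666 library lay above every CytoD library, against 29.2% of all genes. Without CK666 replicate 3, 61 were called higher and 2 lower (21.9% and 20.2% of all genes), with a median of 0.25, and with the length correction 32 higher and 2 lower (17.8% and 18.3%), with a median of 0.14. The count of higher calls was 4 without Ctrl replicate 1 and 4 without Ctrl replicate 3, beside 1732 of 13751 and 1685 of 13742 genes tested. Without CytoD replicates 1, 2 and 3 it was 5, 1 and 1, beside 1704 of 13736, 1487 of 13697 and 1506 of 13712. It was 30 without CK666 replicate 2, beside 2272 of 13757. Without CytoD+CK666 replicates 1, 2 and 3 it was 2, 1 and 7, beside 1886 of 13720, 1510 of 13724 and 1626 of 13721. In the CytoD+CK666 libraries other genes under 1000 bases had medians of 0.14 to 0.18 over the Ctrl mean, against -0.03 to 0.05 in the CytoD libraries, and the part of gene length in the result beyond the corrected fit was not tested.

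Rps3 was the clearest of these, at 725, 751 and 702 CPM with both drugs and 564, 546 and 549 CPM with CytoD alone, with no overlap. Its log2 change was 0.39 (SE 0.10, adjusted p = 0.00983), and the call held under all 23 alternatives. Rpl9 was higher by 0.41 (SE 0.12, adjusted p = 0.0202), with 811, 913 and 876 CPM with both drugs and 656, 644 and 660 CPM with CytoD. Its call was lost without CytoD replicate 1 (0.0551), 2 (0.0648) or 3 (0.056), or without CytoD+CK666 replicate 2 (0.0748) or 3 (0.0569). Rpl28, at 329, 362 and 304 CPM with both drugs and 265, 257 and 240 CPM with CytoD, changed by 0.38 (adjusted p = 0.0403), and lost its call without any single Ctrl or CytoD library and without CytoD+CK666 replicate 1 or 2 (0.0531 to 0.147). Its call was also lost with RLE scaling, the replicate block, halved counts, TMM without the members and without Rn45s (0.0528 to 0.0596). Rps27a changed by 0.37 (adjusted p = 0.0305), and lost its call without Ctrl replicate 1 or 3, CytoD replicate 2 or 3, or any CytoD+CK666 library (0.0564 to 0.119). Rpl14 changed by 0.37 (adjusted p = 0.0384), and lost its call without Ctrl replicate 1 or 3, any CytoD library or any CytoD+CK666 library (0.0637 to 0.122). Its call was also lost with RLE scaling, halved counts, TMM without the members and without Rn45s (0.0556 to 0.0569). The member called lower was Rpl26, chosen here after its values were seen, at 1.81, 0.987 and 0.918 CPM with both drugs and 3.12, 1.74 and 2.35 CPM with CytoD. Its groups overlapped (log2 -0.96, SE 0.33, adjusted p = 0.0419), and no member was called lower without Ctrl replicate 1 or 2, CytoD replicate 1 or 3, or CytoD+CK666 replicate 2 or 3.

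With both drugs the members lay below their level with CK666 alone, by less without CK666 replicate 3. None of 82 was called higher and 18 were called lower, against 4.43% and 7.17% of all genes tested, and the median log2 change was -0.34. In edgeR 64 members had an unadjusted p under 0.05, beside 3916 of 13534 genes. DESeq2 called 0 higher and 37 lower, beside 1025 and 1295 of 13529. Without CK666 replicate 3, 1 was called higher and 12 lower (7.13% and 7.71% of all genes), with a median of -0.14, and with the length correction 1 higher and 33 lower (6.92% and 9.06%), with a median of -0.18. The count of lower calls was 63 without CK666 replicate 2, beside 1419 of 13757 genes tested. It was between 5 and 10 without any single Ctrl or CytoD library, beside 733 to 811 of 13697 to 13755 genes. Without CytoD+CK666 replicates 1, 2 and 3 it was 6, 2 and 0, beside 997 of 13720, 519 of 13724 and 503 of 13721. Rpsa had 1041, 1021 and 941 CPM with both drugs and 1287, 1148 and 1680 CPM with CK666 alone, with no overlap. It changed by -0.45 (SE 0.12, adjusted p = 0.0263), and by -0.27 without CK666 replicate 3 (adjusted p = 0.0358). It lost its call without CytoD+CK666 replicate 2 (0.076) or 3 (0.115), and with only the groups compared (0.138). Rpl28 had 329, 362 and 304 CPM with both drugs and 404, 397 and 592 CPM with CK666, a log2 change of -0.49 (SE 0.13, adjusted p = 0.0286), and of -0.26 without CK666 replicate 3 (adjusted p = 0.0257). Its call was lost without Ctrl replicate 1 (0.0513) or 3 (0.0531), without CytoD+CK666 replicate 1 (0.0628) or 3 (0.131), and with only the groups compared (0.162). Rpl35, Rps20 and Rpl29, at -0.47, -0.45 and -0.45, were called with all libraries (adjusted p = 0.0399, 0.0405 and 0.0472) and not without CK666 replicate 3, where their adjusted p was 0.0563, 0.0642 and 0.0753. They also lost their calls without any single Ctrl, CytoD or CytoD+CK666 library (0.0526 to 0.171), except Rps20 without CytoD replicate 1. With only the groups compared their adjusted p was 0.175, 0.174 and 0.197. Rpl29 also missed the threshold with RLE scaling, the replicate block, halved counts, TMM without the members and without Rn45s (0.0501 to 0.0546).

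Whether CytoD acted differently in the presence of CK666 was tested as an interaction, the change with CytoD in CK666-treated cells minus that in cells without CK666. None of 82 members was called higher and 1 lower, against 6.63% and 7.67% of all genes tested, and the median was -0.03. In edgeR 1 member had an unadjusted p under 0.05, beside 3973 of 13534 genes. DESeq2 called 0 higher and 1 lower, beside 1272 and 1331 of 13529. Without CK666 replicate 3, 14 were called higher and none lower (14.1% and 10.6% of all genes), with a median of 0.19, and with the length correction 6 were higher and 1 lower (10.7% and 10.3%), with a median of 0.13. The median thus had opposite signs with and without CK666 replicate 3. It also turned positive without Ctrl replicate 2 (0.018), CytoD replicate 1 (0.012) or CytoD+CK666 replicate 3 (0.0064). The single call with all libraries was Rps4y2, at -0.97 (SE 0.28, adjusted p = 0.0367), and it was lost without any single Ctrl or CytoD library, CK666 replicate 3, or CytoD+CK666 replicate 1 or 2 (0.0503 to 0.0946).

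Most members followed the family's mean over the libraries. Each member's log2 CPM had a median correlation of 0.97 with the mean of the members over 12 libraries, with 68 of 82 above 0.9, and of 0.94 over 11 libraries without CK666 replicate 3, with 55 above 0.9. These are descriptions over libraries that share treatment, depth and, for CK666 replicate 3, the shift with gene length. Over 11 libraries Rps4y2 ran against the family (r = -0.84), and Rpl26 (-0.10), Rpl39l (0.03), Rps27 (0.06), Rpl22l1 (0.16), Rpl9 (0.44) and Rps27l (0.50) followed it least. The genes outside the symbol rule with the most similar pattern over 12 libraries were Psmb4 (r = 0.992), Eif3k (0.985), Mrpl15 (0.985), Fau (0.984) and Eif3h (0.983). Over 11 libraries they were Psmb4 (0.978), Tomm40l (0.974), Polr1d (0.972), Gnb2l1 (0.971) and Eef1b2 (0.970). Of these, Fau and Gnb2l1 are themselves ribosomal proteins that the symbol rule misses.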

How the data were processed

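Total RNA of 12 libraries, 3 in each of 4 groups, was sequenced on an Illumina protocol. The deposited table gives, for 23358 gene rows, whole-number read counts and RPKM made by the authors, and its header names a length column that was used as gene length. CASAVA 1.9, TopHat 12.0.6, HTSeq and the build hg19 are named, per the submitters' processing notes, with no role or order. The gene symbols are mouse symbols, so the build behind the table's coordinates is uncertain; the annotation, strand setting and treatment of reads with several matches are not stated in the sources used here. No row without a gene name was present.

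The counts were tested with edgeR 4.0.16 (R 4.3.3, filterByExpr with a minimum count of 10, TMM, quasi-likelihood, 2-sided, Benjamini-Hochberg over 13534 genes, called at an adjusted p under 0.05), with 1 mean per group and a dispersion shared over 12 libraries. SE is the log2 change over the square root of F. CPM use TMM-scaled totals, and library profiles use a prior count of 2. Gene sums per library of 48930210 to 69269716 put 3 counts at 0.0433 to 0.0613 CPM, which covers counting error only. Replicates of each group differed by more than sampling noise. Titles give replicate numbers. Deviations from group means had r of -0.08 to 0.26 in 18 same-numbered pairs and of -0.18 to 0.17 in 36 other pairs. The main fit used no block. The alternatives were DESeq2 1.42.0, RLE scaling, no filter, each library left out, a loess correction for gene length (span 0.5), a replicate block, only the groups compared, halved counts, scaling without the members, totals without Rn45s, and other member lists. Leaving out CK666 replicate 3 together with the length correction was chosen after seeing the data. The script was tested on simulated data.

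The members and lists were chosen with earlier results of these data known. Named members were, per comparison, the 5 most raised and 5 most lowered called members whose groups do not overlap, and a fixed set of members by role; of these, the ones printed were picked after their values were seen. Promoters are from RefSeq (GRCm38.p6) and transcripts from GENCODE M21. Sequences of 2 members on chromosome 18 were not used here.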

Additional observations from a re-analysis of the deposited data

Results flagged for a closer look

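Rps4y2 was the only member called for a different change with CytoD in cells with and without CK666 when all libraries were used. Its log2 difference was -0.97 (SE 0.28, edgeR quasi-likelihood interaction, adjusted p = 0.0367). The call was lost in 9 of 12 fits with 1 library left out (adjusted p 0.0503 to 0.0946), among them the fit without CK666 replicate 3. The row had only 140 to 412 counts per library. With CytoD+CK666 against CK666 its log2 change was -0.0023 (adjusted p = 0.995), and with CytoD against Ctrl it was 0.96 (adjusted p = 0.00216). Tmtc1, whose span holds Rps4y2 on the other strand, had an interaction of -1.83 (adjusted p = 0.00102).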

How the results depend on the processing

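The members' median with CytoD against Ctrl stayed on the lower side in every alternative. Counts of calls moved more than medians. Members called lower with CytoD were 63 of 82 with the gene length correction, beside 3128 of 13534 genes tested. With the replicate block added they were 67, beside 3174 of 13534. Only the groups compared gave 68 lower and 2 higher, beside 3678 and 3666 of 13112 genes. The length correction without CK666 replicate 3 gave 69 lower and 2 higher, beside 3609 and 3439 of 13730. Without the paralogs 0 were higher. Rps27l turned to 0.0030 with the length correction and 0.0035 with the block added.

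With CK666 against Ctrl, 14 members were called higher under RLE scaling, with TMM without the members and without Rn45s. Those fits called 2658 of 13534, 2661 of 13534 and 2667 of 13533 genes higher. Halved counts gave 15, beside 2652 of 12723 genes, and only the groups compared gave 3, beside 2095 of 12980. The length correction gave 4 higher, 6 lower and a median of 0.0072, with the replicate block 5, 8 and 0.0075, and without CK666 replicate 3 it gave 3, 9 and -0.037, a reversed median. Of all genes, these fits called 2910 higher and 3138 lower of 13534, 2924 and 3200 of 13534, and 2745 and 3184 of 13730. With both drugs against Ctrl, DESeq2 called 7 lower, beside 3306 of 13529 genes, and the block alone 4 higher, beside 3328 of 13534. The length correction gave 41 lower and a median of -0.16, beside 3611 of 13534 genes. With the block added it gave 4 higher, 41 lower and -0.16, beside 3463 and 3642 of 13534. Without CK666 replicate 3 it gave 50 lower and -0.16, beside 3989 of 13730. Only the groups compared gave 4 higher and 19 lower, beside 3646 and 3762 of 13079 genes, and leaving out the paralogs 1 higher.

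With both drugs against CytoD, higher calls were 9 under RLE scaling and 7 with halved counts, beside 1829 of 13534 and 1840 of 12723 genes. They were 7 with TMM without the members and 8 without Rn45s, beside 1878 of 13534 and 1865 of 13533. Only the groups compared gave 63 higher and 2 lower, beside 2863 and 2715 of 13232. DESeq2 and the replicate block each called 2 lower, beside 2324 of 13529 and 1993 of 13534 genes. The length correction gave 32 higher, 2 lower and a median of 0.14, with the block 33, 2 and 0.14, and without CK666 replicate 3 it gave 41, 2 and 0.14. Of all genes, these fits called 2415 higher and 2482 lower of 13534, 2470 and 2601 of 13534, and 3006 and 2894 of 13730. With both drugs against CK666, DESeq2 called 37 lower and only the groups compared 0, beside 1295 of 13529 and 349 of 13086 genes. The length correction gave 1 higher and 33 lower, beside 937 and 1226 of 13534 genes, and with the block 1 and 35, beside 1097 and 1305. Without CK666 replicate 3 it gave 1 higher, beside 1020 of 13730. The interaction median turned to 0.13 with the length correction (6 higher), 0.13 with the block added (6 higher) and 0.17 without CK666 replicate 3 (22 higher, 0 lower). Of all genes, 1449 of 13534, 1523 of 13534 and 1997 of 13730 were called higher in these fits, and 1578 of 13730 lower in the last. Without the paralogs 0 were lower. The cause of these moves was not tested.

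Leaving out 1 library at a time, lower calls with CytoD were 14 to 66. Higher calls with CK666 were 3 to 61, with a median of 0.047 to 0.41. With both drugs against Ctrl, 2 to 5 were higher and 2 to 20 lower. Against CytoD they were 1 to 61 and 0 to 2, against CK666 0 to 1 and 0 to 63, and for the interaction 0 to 14 and 0 to 1, with a median of -0.13 to 0.19. Of 13697 to 13757 genes tested in these fits, 1965 to 3585 were lower with CytoD and 2114 to 3141 higher with CK666. With both drugs against Ctrl, 2467 to 3857 genes were higher and 2447 to 3878 lower. Against CytoD these were 1487 to 3010 and 1380 to 2778, and against CK666 242 to 1144 and 503 to 1419. For the interaction they were 506 to 1936 and 569 to 1460. With CytoD, Rpl22l1 ranged from -0.10 to 0.085, Rps27 from -0.21 to 0.066 and Rps27l from -0.086 to 0.025. As the numbers pair the libraries weakly at most (r over 0.1 in 4 of 18 same-numbered pairs), the replicate block is only a check. Low counts limit Rps27, Rpl26 and Rps4y2.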
